A study of Mus musculus with 18 samples.

Results

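The heat shock chaperones followed here in male germ cells were 9 genes measured in 18 RNA libraries: *Hspa2*, *Hspa1l*, *Hspa8*, *Hspa4*, *Hspa4l*, *Hsp90aa1*, *Hsp90ab1*, *Hspd1* and *Hspe1*. These 9 genes were taken as a list, with no threshold on their values, and all 9 were among the 14681 genes tested. Germ cells of 3 stages, the pachytene spermatocyte and the round and the elongating spermatid, came from adult wild-type C57BL/6 mice, and from each cell type RNA was taken from polysomes (the heavy end of a sucrose gradient) and from ribonucleoprotein particles, or RNPs (the light end). Each of the 6 groups held 3 libraries. Cells were purified by sedimentation (STA-PUT) from pooled testes with cycloheximide in the buffers, and their purity was judged by morphology and was lowest for elongating spermatids. No source says which libraries came from the same purification, so p-values measure the spread between these libraries, which may be technical. In bulk RNA of this kind fewer cells of a type and less RNA per cell cannot be told apart.

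Heat shock proteins of the Hsp70 class bind unfolded stretches of other proteins in cycles driven by ATP. J domain proteins load them, and exchange factors such as the Hsp110 relatives reset them. Hsp90 takes over clients at a later step of folding, and the chaperonin Hsp60 with its lid Hsp10 works inside mitochondria. Male germ cells carry their own Hsp70 forms: *Hspa2* is needed for meiosis in male mice, and *Hspa1l* is a spermatid form encoded beside the inducible Hsp70 genes in the major histocompatibility region.

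Each library was assembled alone, and a transcript was matched to a gene by strand and a shared splice junction. The FPKM of a gene (fragments divided by transcript length and by library total) was the sum over its matched transcripts, and a transcript that was not assembled counted as 0. The junctions of 4 members are shown because the results turn on where they were joined. Their splice sites are shown with the last or first 10 bases of the exon in capitals and 10 bases of the intron in lower case, read on the strand of the gene from the mm9 genome (NCBIM37).
*Hspa2* donor: CTCCGACCAGgcaagcctgt
*Hspa2* acceptor: gttttttcagTCAGGATGTC
*Hspa1l* donor: GAGATCCCAGgtgagctggg
*Hspa1l* acceptor: ttctccatagGCCTCGGAAA
*Hspa4* donor: CTATGAATAGgtaaccatgt
*Hspa4* acceptor: tctttactagAGGCAAATTT
*Hsp90ab1* donor: GGTTGAAAAGgtgagtctcc
*Hsp90ab1* acceptor: ttgtccacagGTGACAATCT
The *Hspa2* windows lie at chr12:77505267-77505286 and chr12:77505506-77505525, those of *Hspa1l* at chr17:35109798-35109817 and chr17:35113909-35113928, those of *Hspa4* at chr11:53093960-53093979 and chr11:53088712-53088731, and those of *Hsp90ab1* at chr17:45705797-45705816 and chr17:45705502-45705521. The *Hspa2* intron begins with GC, which was found in 2672 of 241085 annotated introns that end in AG (1.11%), while the other 3 introns begin with GT as 96.9% do.

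Some libraries stood apart from the rest, and for the differences that they move most, values are also given without the pachytene and round libraries numbered 2. Over all tested genes the replicates of elongating spermatids correlated at 0.844 to 0.881 and those of pachytene spermatocytes at 0.654 to 0.823. Round spermatid libraries numbered 2 correlated with the other round libraries of their fraction at only 0.480 to 0.620. These 2 libraries also went against their label: their summed round spermatid markers were 66.6 and 69.3 FPKM, against 653 to 1224 FPKM in the other 4. Pachytene spermatocyte markers (10 genes) summed to 268 FPKM in pachytene RNP library 3, below every spermatid RNP library (295 to 687 FPKM). Pachytene RNP libraries 1 and 2 had 673 and 819 FPKM. Library 3 also held the fewest transcripts (26773), and it remains in all values given without the libraries numbered 2. Sertoli cell markers (12 genes) summed to 1310 to 2689 FPKM in 5 libraries, namely both round libraries numbered 2, both pachytene libraries numbered 2 and pachytene polysome library 3, and all 12 genes reached an FPKM of 1 in each of them. In the other 13 libraries the sum was at most 595 FPKM and 6 to 11 of the 12 genes reached that level. Spermatogonium markers summed to 2616 to 6296 FPKM in both pachytene libraries numbered 2 and round RNP library 1, and to at most 709 FPKM in the other 15. Those high sums rest on a part of the 6 markers, since the median marker was at 23.2 to 29.0 FPKM there. The highest median, 82.4 FPKM, was in round polysome library 2, where the sum was 540 FPKM. Elongating spermatid markers summed to 9735 to 39768 FPKM in elongating libraries. In the pachytene libraries numbered 1 they summed to 1734 FPKM (polysomes) and 3225 FPKM (RNPs), and in the other pachytene libraries to 196 to 972 FPKM. Round libraries had 310 to 6691 FPKM, with RNP library 1 the highest.

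*Hspa2* (ENSMUSG00000059970.6, mm9 chr12:77505163-77507921, plus strand) has 1 annotated transcript of 2 exons. Its first exon of 114 bases is joined over an intron of 239 bases to a second exon of 2406 bases that holds the coding sequence. In pachytene spermatocytes the spliced transcript had 0, 0 and 0 FPKM in polysomes (replicates 1, 2 and 3) and 0, 0 and 20.1 FPKM in RNPs. In round spermatids it had 304, 57.1 and 261 FPKM in polysomes and 263, 38.2 and 206 FPKM in RNPs. In elongating spermatids it had 202, 239 and 193 FPKM in polysomes and 176, 120 and 127 FPKM in RNPs. Every spermatid library exceeded every pachytene library, the round libraries numbered 2 were the lowest of the spermatids, and 5 of 6 pachytene libraries were listed at 0.

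Transcripts of 1 exon gave *Hspa2* a level in pachytene spermatocytes as well. All 6 pachytene libraries held an unspliced *Hspa2* transcript that began inside the intron, 25 to 192 bases before exon 2, and ran to between 3 and 236 bases past the annotated end. With it, *Hspa2* had 241, 284 and 775 FPKM in pachytene polysomes and 334, 520 and 99.8 FPKM in pachytene RNPs. Both round libraries numbered 2 also held such a transcript, which brought them to 192 FPKM in polysomes and 122 FPKM in RNPs, and no other spermatid library held one. Counted this way the groups overlapped, and the mean was 433 ± 297 FPKM in pachytene polysomes, 252 ± 56.2 FPKM in round polysomes and 211 ± 24.4 FPKM in elongating polysomes (SD, n = 3 each). In RNPs it was 318 ± 210.5 FPKM in pachytene, 197 ± 70.9 FPKM in round and 141 ± 30.4 FPKM in elongating libraries (SD, n = 3 each).

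**Figure D1:**
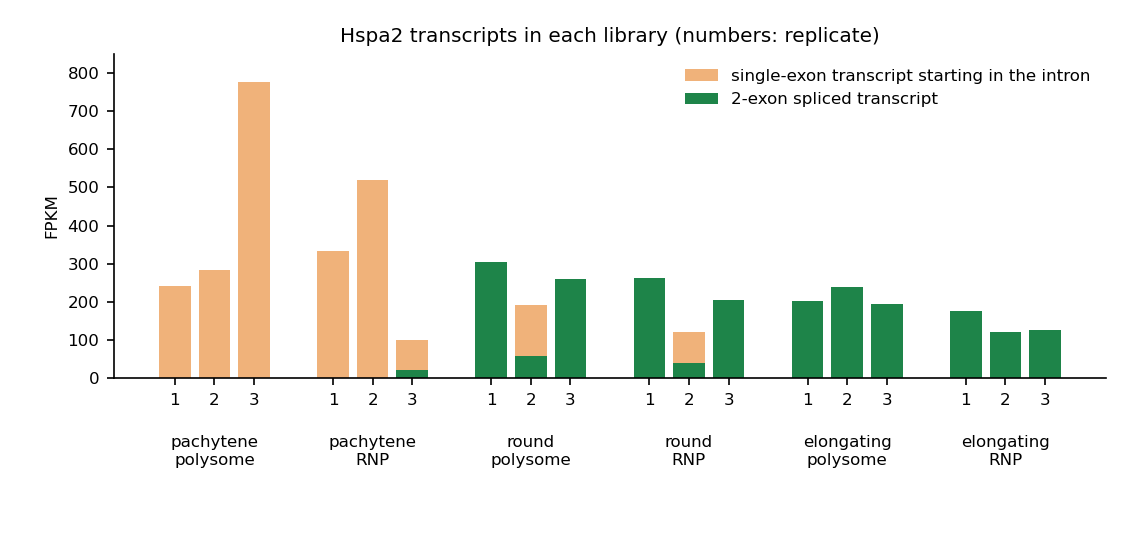
FPKM of *Hspa2* in each of the 18 libraries (bars, y axis), split into the spliced transcript of 2 exons (green) and the single-exon transcript that starts in the intron (orange). The 6 pachytene libraries are almost wholly orange, the elongating libraries are wholly green, and the round libraries numbered 2 hold both.

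On spliced transcripts *Hspa2* was higher in round than in pachytene polysomes (limma, adjusted p = 0.0043), where 0.0477% of genes were called higher. It was also higher in elongating than in pachytene polysomes (limma, adjusted p = 0.0010), where 3.15% of genes were called higher, and no fold is given for either since pachytene polysomes were listed at 0. In RNPs the elongating libraries exceeded the pachytene libraries by 5.67 ± 0.97 on the log2(FPKM + 1) scale (limma, adjusted p = 0.017), where 0.538% of genes were called higher. With single-exon transcripts counted these 3 log2 differences became -0.60 ± 0.65, -0.84 ± 0.65 and -0.89 ± 0.65, and none passed (limma, adjusted p = 0.96, 0.49 and 0.56).

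The 5′ end of the spliced *Hspa2* transcript lay 184 to 448 bases upstream of the annotated start in all 6 elongating libraries. In the round libraries it lay between 448 bases upstream and 34 bases downstream, and the 2 downstream starts were those of the libraries numbered 2. The 3′ end of elongating spermatids was sharp, between 2 bases before and 4 bases after the annotated end. A joined junction in nearly every spermatid library and at most 1 pachytene library was rare: of 76405 annotated junctions found in at least 11 of the 12 spermatid libraries, 67 were found in at most 1 pachytene library (0.0877%), the *Hspa2* junction among them.

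*Hspa1l* (ENSMUSG00000007033.3, chr17:35109648-35116229, plus strand), the spermatid Hsp70, has 1 transcript of 2 exons. It had 36.8, 0 and 11.6 FPKM in pachytene polysomes and 39.9, 0 and 6.95 FPKM in pachytene RNPs. It had 129, 1.80 and 42.6 FPKM in round polysomes and 97.5, 0 and 36.5 FPKM in round RNPs. It had 441, 378 and 339 FPKM in elongating polysomes and 316, 196 and 222 FPKM in elongating RNPs. Every elongating library exceeded all 12 others, while round and pachytene groups overlapped, and libraries numbered 2 were the lowest of each pachytene and round group. Libraries numbered 1 were the highest of each of those groups, and also the highest of each in elongating spermatid markers. Single-exon transcripts added little, with 36.8, 2.84 and 16.4 FPKM in pachytene polysomes, 39.9, 2.26 and 6.95 FPKM in pachytene RNPs, 129, 4.94 and 42.6 FPKM in round polysomes, 97.5, 4.16 and 36.5 FPKM in round RNPs and no change in elongating libraries.

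Elongating exceeded pachytene polysomes by 5.62 ± 1.71 on the log2(FPKM + 1) scale, short of the threshold on spliced transcripts (limma, adjusted p = 0.062) and past it with single-exon transcripts counted (4.82 ± 1.21, limma adjusted p = 0.038). Without the 4 pachytene and round libraries numbered 2 the difference was 4.14 ± 0.76 and passed (limma, adjusted p = 0.0091). In RNPs it was 5.13 ± 1.71 (limma, adjusted p = 0.16), and 3.74 ± 0.76 without those 4 libraries (limma, adjusted p = 0.049). The share of all genes called in these alternative settings is not given here, so the passes cannot be called particular to *Hspa1l*. For round against pachytene polysomes, leaving out those 4 libraries raised the genes called from 27 to 192. Elongating exceeded round polysomes by 3.94 ± 1.71 (limma, adjusted p = 0.29), and by 2.35 ± 1.38 without the round libraries numbered 2 (limma, adjusted p = 0.69). A lincRNA, Gm10501, overlaps *Hspa1l* on the opposite strand over 1778 bases, and transcripts were matched by strand.

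*Hspa8* (ENSMUSG00000015656.10, chr9:40609067-40613283, plus strand), the constitutive Hsp70 of most cells, had 36.0, 263 and 123 FPKM in pachytene polysomes and 67.3, 656 and 24.2 FPKM in pachytene RNPs. It had 25.1, 310 and 54.6 FPKM in round polysomes and 24.4, 378 and 103 FPKM in round RNPs. It had 20.4, 58.4 and 19.6 FPKM in elongating polysomes and 34.9, 26.9 and 76.4 FPKM in elongating RNPs. The libraries numbered 2 were the highest of each pachytene and round group, and on these sums all groups overlapped. *Hspa8* came in 2 pieces in 4 libraries, which raises their sums. Per covered base it had 20.4, 27.3 and 19.6 FPKM in elongating polysomes, below all pachytene polysomes (36.0, 159 and 123 FPKM). On sums 22.9% of all genes were lower without overlap in that comparison. No comparison of *Hspa8* passed: elongating against pachytene polysomes gave -1.84 ± 1.19 (limma, adjusted p = 0.35), and -1.19 ± 0.82 without the 4 libraries numbered 2 (limma, adjusted p = 0.39). Elongating minus pachytene RNPs was -1.29 ± 1.19 with those libraries and 0.04 ± 0.82 without them (limma, adjusted p = 0.64 and 1). The genome holds 5 other copies of its coding sequence at 95% identity or more over at least 50% of the length (highest 99.7%), so the assignment of its reads is uncertain.

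*Hspa4* (ENSMUSG00000020361.7, chr11:53073316-53113959, minus strand) and *Hspa4l* (ENSMUSG00000025757.7, chr3:40548417-40600025, plus strand) encode Hsp110 relatives that exchange the nucleotide of Hsp70, and male mice that lack either one have impaired fertility. *Hspa4* had 103, 88.0 and 130 FPKM in pachytene polysomes and 54.5, 80.2 and 19.2 FPKM in pachytene RNPs. It had 253, 125 and 205 FPKM in round polysomes and 246, 240 and 218 FPKM in round RNPs. It had 205, 243 and 203 FPKM in elongating polysomes and 250, 120 and 137 FPKM in elongating RNPs. All spermatid RNP libraries exceeded all pachytene RNP libraries.

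That order of the *Hspa4* sums moved with how the gene was assembled. The junction over the intron chr11:53088722-53093969 was found in 0 of 12 spermatid libraries and in 6 of 6 pachytene libraries, and the gene came in several pieces in all 12 spermatid libraries (up to 4), against 1 of 6 pachytene libraries. FPKM is already divided by length, so a sum over pieces counts the level once for each piece. Taken per covered exon base, an alternative chosen after seeing the data, *Hspa4* had 98.0 ± 34.8 FPKM in pachytene, 101 ± 34.0 FPKM in round and 111 ± 10.2 FPKM in elongating polysomes (SD, n = 3 each). In RNPs it had 51.3 ± 30.6 FPKM in pachytene, 51.2 ± 11.1 FPKM in round and 55.7 ± 14.6 FPKM in elongating libraries (SD, n = 3 each). The sums put elongating above pachytene RNPs by 1.84 ± 0.50 (limma, adjusted p = 0.096, and 0.034 after median-ratio scaling of the libraries, when 2.25% of genes were called higher; 2.27 ± 0.46 and 0.049 without the 4 libraries numbered 2), and round above pachytene RNPs by 2.39 ± 0.50 (limma, adjusted p = 0.37). Per covered base those log2 differences were 0.30 ± 0.48 and 0.19 ± 0.48 (limma, adjusted p = 0.76 and 1). For the value without the 4 libraries numbered 2, the share of all genes called is not given here.

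*Hspa4l* was assembled in 1 spliced piece in all 18 libraries. It had 89.6, 134 and 155 FPKM in pachytene polysomes and 170, 74.8 and 49.6 FPKM in pachytene RNPs. It had 293, 49.1 and 243 FPKM in round polysomes and 136, 41.7 and 89.9 FPKM in round RNPs. It had 372, 364 and 273 FPKM in elongating polysomes and 210, 133 and 208 FPKM in elongating RNPs. Elongating polysomes lay above all pachytene polysomes, while the round polysomes spread over both, with library 2 lowest. The elongating against pachytene polysome difference was 1.43 ± 0.65 and did not pass (limma, adjusted p = 0.18), nor did it without the 4 libraries numbered 2 (1.49 ± 0.52, limma adjusted p = 0.096).

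The assembled tail of *Hspa4l*, counted as exon bases beyond the last sense codon in its longest-reaching transcript, was uneven. It was 7606, 2006 and 6932 bases in pachytene polysomes and 1956, 4773 and 1150 bases in pachytene RNPs. It was 1956, 8262 and 1954 bases in round polysomes and 1632, 2059 and 1751 bases in round RNPs, and 1624, 1924 and 2276 bases in elongating polysomes and 1129, 1400 and 1584 bases in elongating RNPs. The tail was longer than in any elongating library in 3 of 6 pachytene libraries and in round polysome library 2, and the other 3 pachytene libraries lay within the elongating range. In pachytene RNP libraries 1 and 3 the more abundant *Hspa4l* transcript (124 and 34.5 FPKM) had no such tail: it was spliced 60 bases past the last sense codon, over introns of 7916 and 11553 bases, to last exons of 165 and 9 bases. Single-exon pieces matched to the gene were found in 11 of the 12 spermatid libraries, with up to 8 pieces, so the assembled reach depends on where an assembly breaks and is not a measured cleavage site. For comparison, the tail of *Hspe1* was 160 to 196 bases in all 18 libraries and that of *Hsp90aa1* 676 to 1218 bases.

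**Figure D2:**
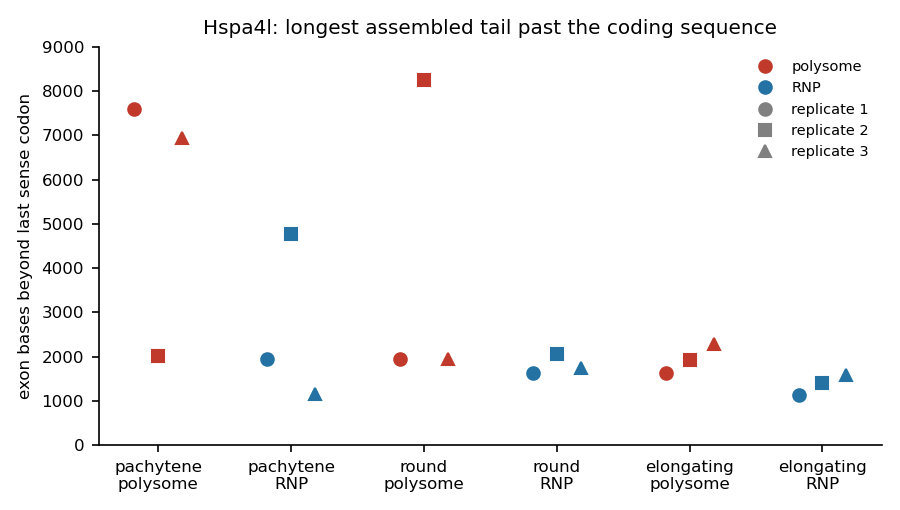
Exon bases beyond the last sense codon of *Hspa4l* in its longest-reaching spliced transcript (y axis) in each library, by cell type and fraction, with polysomes in red, RNPs in blue and a marker for each replicate number. Elongating libraries lie between 1129 and 2276 bases, and 3 of 6 pachytene libraries lie between 4773 and 7606 bases.

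*Hsp90aa1* (ENSMUSG00000021270.7, chr12:111928815-111940938, minus strand) encodes the inducible form of Hsp90, which male germ cells of mice need to pass meiosis. It was the most abundant member in most libraries, with 618, 453 and 1185 FPKM in pachytene polysomes and 419, 713 and 101 FPKM in pachytene RNPs. It had 766, 582 and 601 FPKM in round polysomes and 307, 240 and 278 FPKM in round RNPs. It had 454, 600 and 440 FPKM in elongating polysomes and 242, 180 and 277 FPKM in elongating RNPs. Polysome libraries were all above RNP libraries in both spermatid types, while in pachytene spermatocytes the fractions overlapped through RNP library 2. The polysome minus RNP difference was 1.15 ± 0.63, 1.23 ± 0.63 and 1.10 ± 0.63 in pachytene, round and elongating cells, and none passed (limma, adjusted p = 0.24, 0.37 and 0.35). After median-ratio scaling these differences were -0.02, 0.46 and 0.19, so the sign in pachytene spermatocytes turned. All 10 of its junctions were joined in every library, and 2 other genomic copies match its coding sequence (highest identity 99.5%).

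*Hsp90ab1* (ENSMUSG00000023944.8, chr17:45704724-45710220, minus strand), the constitutive Hsp90, had 118, 127 and 131 FPKM in pachytene polysomes and 39.9, 270 and 39.9 FPKM in pachytene RNPs. It had 165, 586 and 109 FPKM in round polysomes and 80.4, 447 and 89.9 FPKM in round RNPs. It had 65.3, 69.2 and 63.5 FPKM in elongating polysomes and 67.9, 51.5 and 71.9 FPKM in elongating RNPs. Elongating polysomes lay below all pachytene and round polysomes, and library 2 was the highest in round polysomes, round RNPs and pachytene RNPs. Neither difference passed: elongating minus pachytene polysomes was -0.92 ± 0.77 and elongating minus round polysomes was -1.72 ± 0.77 (limma, adjusted p = 0.48 and 0.30). Without the 4 libraries numbered 2 they were -0.91 ± 0.29 and -1.02 ± 0.29 (limma, adjusted p = 0.070 and 0.17).

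Like *Hspa4*, *Hsp90ab1* lost a junction in spermatid assemblies. The intron chr17:45705512-45705806 was spliced out in 0 of 12 spermatid libraries and 5 of 6 pachytene libraries, and all 12 spermatid libraries held the gene in several pieces, against 2 pachytene libraries. Of 91828 annotated junctions found in at least 5 pachytene libraries, 43 were found in no spermatid library (0.0468%), and 2 of these were among the 77 such junctions of the 9 chaperones (2.6%). Per covered base *Hsp90ab1* had 32.3, 35.5 and 29.4 FPKM in elongating polysomes, against 54.4, 127 and 128 FPKM in pachytene polysomes. Their log2 difference was -1.54 ± 0.89 (limma, adjusted p = 0.25).

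*Hspd1* (ENSMUSG00000025980.8, chr1:55134679-55145087, minus strand) and *Hspe1* (ENSMUSG00000073676.4, chr1:55144976-55148151, plus strand) encode the mitochondrial chaperonin Hsp60 and its lid Hsp10. They are neighbours that are transcribed away from each other, and their annotations share 112 bases on opposite strands. RefSeq promoter windows (250 bases before to 50 bases after a start, GRCm38.p6) were searched for heat shock elements, the repeated sites of heat shock factors, as GAANNTTCNNGAA or TTCNNGAANNTTC, which are each other's reverse complement and can overlap. Of 7 windows of 6 members (*Hspa8*, *Hsp90aa1* and *Hsp90ab1* were not in the table), matches lay only in the shared *Hspd1* and *Hspe1* region, and 198 of 32851 windows hold either motif (0.603%). The stretch chr1:55088053-55088082 is given on the strand of each gene, with the matched bases in capitals.
*Hspe1* strand: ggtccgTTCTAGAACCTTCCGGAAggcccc
*Hspd1* strand: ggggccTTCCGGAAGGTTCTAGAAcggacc
The matches span bases -89 to -72 from the *Hspe1* start and -144 to -127 from the start in the *Hspd1* window chr1:55087883-55088182. Another *Hspd1* window (chr1:55088194-55088493) held 0 matches, and the matched stretch lies downstream of that window. A match describes these letters and says nothing of what binds there.

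*Hspd1* had 6.30, 28.6 and 75.0 FPKM in pachytene polysomes and 6.39, 112 and 13.3 FPKM in pachytene RNPs. It had 10.2, 113 and 34.5 FPKM in round polysomes and 5.54, 62.2 and 10.2 FPKM in round RNPs. It had 5.35, 7.24 and 5.37 FPKM in elongating polysomes and 12.5, 5.80 and 5.99 FPKM in elongating RNPs. *Hspd1* was low and even in elongating libraries, and library 2 was the highest in 3 of the 4 pachytene and round groups. The gene came in several pieces in 5 libraries, which raises their sums. Per covered base it had 37.3 FPKM in pachytene polysome library 3 and 54.7 FPKM in pachytene RNP library 2, which are among these. No comparison of *Hspd1* passed, and elongating minus round polysomes gave -2.36 ± 1.08 (limma, adjusted p = 0.31), and -1.52 ± 0.87 without the 4 libraries numbered 2 (limma, adjusted p = 0.58).

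*Hspe1* had 22.9, 59.9 and 30.1 FPKM in pachytene polysomes and 11.4, 19.1 and 9.36 FPKM in pachytene RNPs. It had 16.6, 37.0 and 26.3 FPKM in round polysomes and 9.75, 23.2 and 11.3 FPKM in round RNPs. It had 11.8, 13.5 and 12.8 FPKM in elongating polysomes and 12.4, 4.09 and 14.5 FPKM in elongating RNPs. Pachytene polysomes lay above all pachytene RNPs, by 1.38 ± 0.53 (limma, adjusted p = 0.11), and per covered base the same difference had a smaller error and passed (1.38 ± 0.44, limma adjusted p = 0.044). Per covered base 2352 genes were called in either direction in that comparison, against 929 on sums. The median over all genes was 1.01 on sums, and after median-ratio scaling the *Hspe1* difference was 0.26 (limma, adjusted p = 0.95). Elongating polysomes lay below all pachytene and round polysomes, and the difference from pachytene polysomes was -1.38 ± 0.53 (limma, adjusted p = 0.12), and -0.996 ± 0.46 without the 4 libraries numbered 2 (limma, adjusted p = 0.20). Each of these genes has 1 near-identical copy elsewhere in the genome (identity 99.0%), so their reads could be shared with it.

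**Figure D3:**
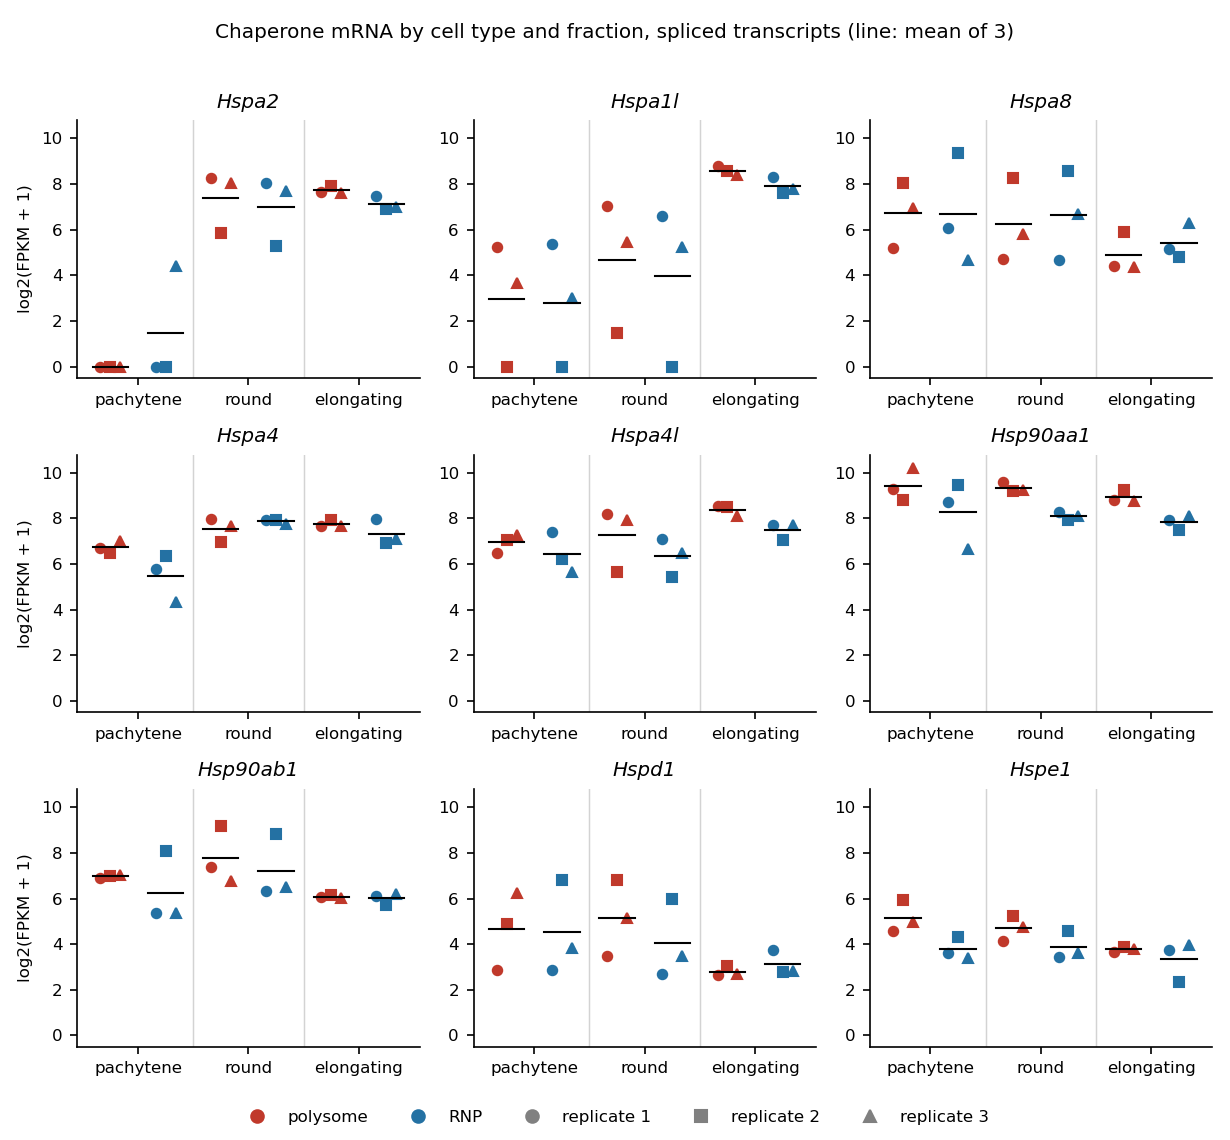
Level of each chaperone as log2(FPKM + 1) of spliced transcripts (y axis) in the 18 libraries, by cell type, with polysomes in red, RNPs in blue, a marker for each replicate number and a line at the mean of 3 libraries. *Hspa1l* and spliced *Hspa2* are highest in spermatids, and replicate 2 stands above the other pachytene and round libraries for *Hspa8*, *Hsp90ab1* and *Hspd1* in most groups.

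Between fractions, 0 of the 9 chaperones were called in pachytene spermatocytes, where 6.15% of all genes tested were called higher and 0.177% lower in polysomes (limma, adjusted p under 0.05). *Hspa4* and *Hspe1* had an unadjusted p under 0.05 there. In round spermatids 0 of 9 were called, against 0.259% of genes higher and 0.0749% lower, and in elongating spermatids 0 of 9, against 1.38% higher and 0.211% lower, with no member at an unadjusted p under 0.05 in either. Without the 4 pachytene and round libraries numbered 2, *Hspa4* (1.80 ± 0.51, limma adjusted p = 0.044) and *Hsp90ab1* (1.62 ± 0.31, limma adjusted p = 0.017) were higher in pachytene polysomes. Only replicates 1 and 3 then remain of each pachytene group. Polysome library 3 is rich in Sertoli cell markers, and RNP library 3 is low in pachytene spermatocyte markers. The *Hsp90ab1* sums count pieces in polysome library 1 and RNP library 3. Per covered base *Hsp90ab1* had 54.4 and 128 FPKM in polysomes and 39.9 and 16.6 FPKM in RNPs (replicates 1 and 3). The share of all genes called in this setting is not given here.

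The fractions did not overlap, with polysomes higher, for *Hspa4* and *Hspe1* in pachytene spermatocytes, for *Hsp90aa1* in round spermatids, and for *Hspa2*, *Hspa1l*, *Hspa4l* and *Hsp90aa1* in elongating spermatids. The same held for 29.5%, 14.4% and 36.9% of all genes in these cell types. In elongating spermatids, for example, *Hspa4l* had 372, 364 and 273 FPKM in polysomes, against 210, 133 and 208 FPKM in RNPs, a log2 difference of 0.89 ± 0.65 (limma, adjusted p = 0.47). No member had RNPs above polysomes without overlap, as 0.620%, 0.742% and 1.78% of genes did. The median over the 9 chaperones was 0.51, 0.70 and 0.43 in pachytene, round and elongating cells, and over all genes it was 1.01, 0.64 and 0.71. Since most genes were higher in polysomes before any scaling, 8, 7 and 7 of the 9 members were positive as deposited and 2, 5 and 1 after median-ratio scaling, which brought the medians of all genes to 0.18, 0.066 and 0.020. No member was called for a change of its fraction difference between cell types (0 of 9 in each of 3 tests, all adjusted p = 1 by limma, where 0.00681%, 0.00681% and 0.0272% of genes were called in either direction). The lowest of these was *Hspa4*, at -1.58 ± 0.71 for round minus pachytene (unadjusted p = 0.041 by limma), and it was the single member under 0.05. That value rests on the summing of pieces, since per covered base it was -0.15 ± 0.67 (limma, adjusted p = 1).

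**Figure D4:**
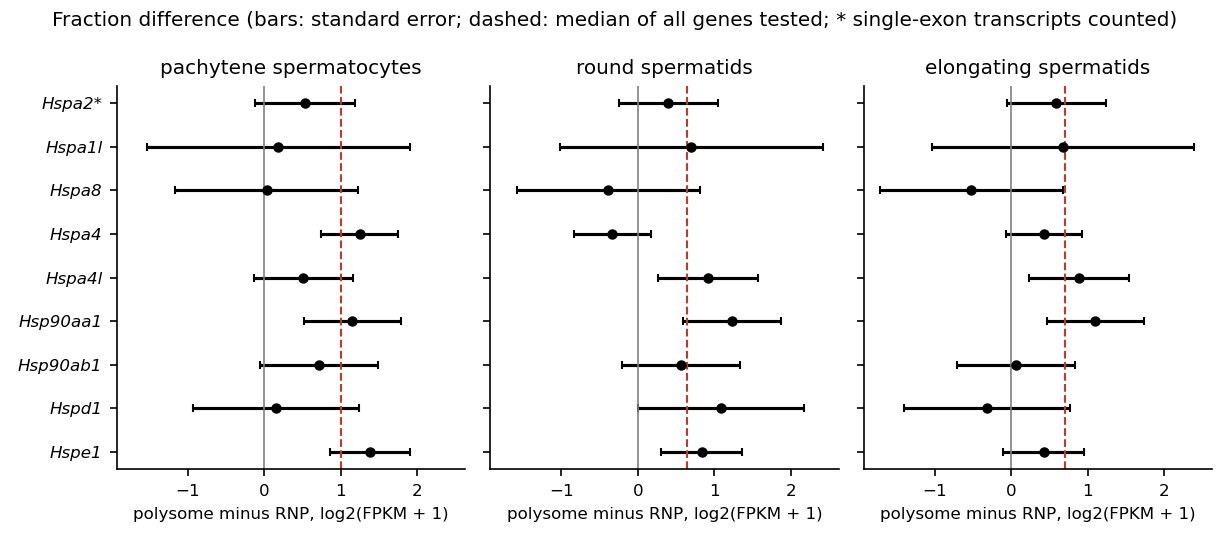
Polysome minus RNP difference on the log2(FPKM + 1) scale (x axis) for each chaperone in the 3 cell types, with its standard error as a bar, a grey line at 0 and a dashed line at the median of all 14681 genes. *Hspa2* is drawn with single-exon transcripts counted (0.53, 0.40 and 0.59), since its spliced form was listed at 0 in pachytene polysomes, and *Hsp90aa1* lies above 1 in each panel (1.15, 1.23 and 1.10).

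Between cell types in polysomes, 1 of 9 chaperones was called for round against pachytene and 1 of 9 for elongating against pachytene, *Hspa2* each time, beside 0.136% and 2.86% of genes called lower. For elongating against round polysomes 0 of 9 were called, where 0.463% of genes were called higher and 0.109% lower, and *Hspa1l*, *Hsp90ab1* and *Hspd1* had an unadjusted p under 0.05. Elongating and pachytene polysomes did not overlap for 6 members. *Hspa2*, *Hspa1l*, *Hspa4* and *Hspa4l* were higher in elongating polysomes, as were 15.9% of genes, and *Hsp90ab1* and *Hspe1* were lower, as were 22.9%. Against round polysomes, *Hspa1l* was higher without overlap (12.1% of genes) and *Hsp90ab1*, *Hspd1* and *Hspe1* were lower (12.9% of genes). Round and pachytene polysomes did not overlap for *Hspa2* alone (higher, as were 3.66% of genes). In RNPs, *Hspa2* was the 1 member called for elongating against pachytene, with 0.150% of genes called lower. For elongating against round RNPs 0 of 9 were called, where 0.0681% of genes were called higher and 0.0136% lower, and *Hspa1l* alone had an unadjusted p under 0.05. For round against pachytene RNPs 0 members and 0 of 14681 genes were called, and *Hspa2* and *Hspa4* had an unadjusted p under 0.05. Both also did not overlap there, with round RNPs higher, as in 3.07% of genes. For elongating against pachytene RNPs *Hspa2*, *Hspa1l* and *Hspa4* did not overlap and were higher (11.8% of genes), 0 members were lower without overlap (7.34% of genes), and against round RNPs *Hspa1l* was higher (5.07%) and *Hsp90ab1* lower (10.1%) without overlap. Without the round libraries numbered 2, *Hspa2* was called for round against pachytene RNPs (6.40 ± 0.93, limma adjusted p = 0.019), on spliced transcripts. That setting called 13 genes in either direction, against 0 in the main fit.

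Per covered base, *Hspa8*, *Hsp90ab1* and *Hspd1* of the 9 chaperones were higher in every library rich in Sertoli cell markers than in any other. That count was chosen after seeing the data. On sums, the main measure, *Hsp90ab1* and *Hspd1* overlapped between the libraries rich in these markers and the rest. In the 5 libraries with the highest marker sums, *Hspa8* had 123 to 656 FPKM per covered base, against 19.6 to 67.3 FPKM in the other 13. *Hsp90ab1* had 127 to 295 FPKM in those 5 and 16.6 to 55.2 FPKM in the others, and *Hspd1* had 28.6 to 110 FPKM in those 5 and 3.48 to 17.1 FPKM in the others. The ranges of the other 6 members overlapped. The share of all genes that separate in this way is not given here, so the separation cannot be called particular to chaperones. *Hspe1* (19.1 to 59.9 FPKM, against 4.09 to 26.3 FPKM) and *Hsp90aa1* (240 to 1185 FPKM, against 101 to 766 FPKM) reached higher in those 5, and *Hspa4* had 44.8 to 127 FPKM in those 5 and 17.5 to 129 FPKM in the others. *Hspa1l*, with 1.92 to 16.2 FPKM in those 5 and 6.95 to 441 FPKM in the others, reached lower. Over the 18 libraries *Hspa8* and *Hsp90ab1* correlated at r = 0.956, *Hsp90ab1* and *Hspd1* at 0.968, *Hspa1l* and *Hspa4l* at 0.903 and *Hspa1l* and *Hspe1* at -0.922, over values per covered base with single-exon transcripts counted. Libraries share cell type and fraction, so these are descriptions. The part of Sertoli cells in these values was not tested.

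**Figure D5:**
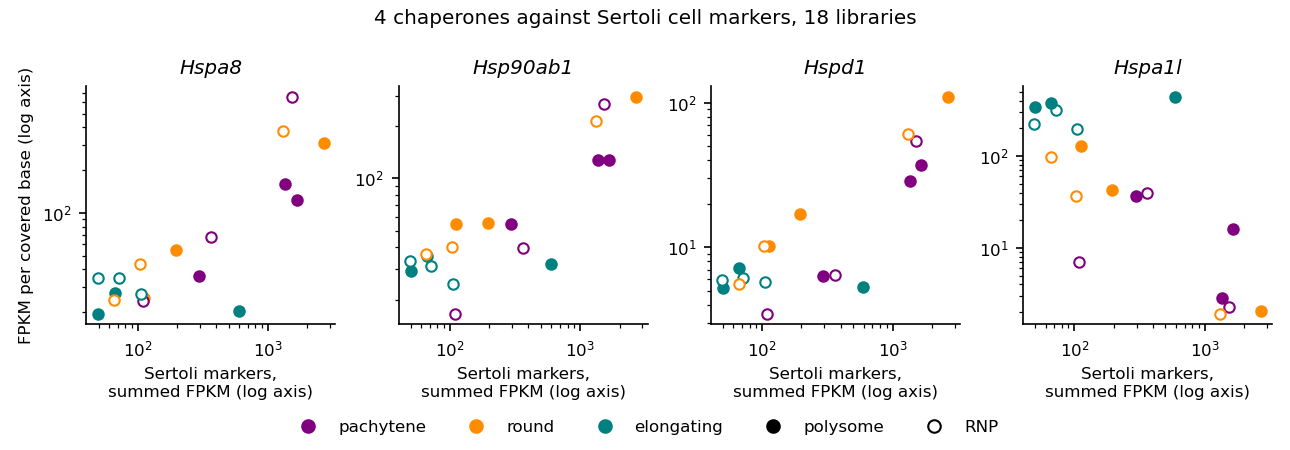
FPKM per covered base of *Hspa8*, *Hsp90ab1*, *Hspd1* and *Hspa1l* (y axes, log scale) against the summed FPKM of 12 Sertoli cell markers (x axes, log scale) in the 18 libraries, coloured by cell type, with polysomes filled and RNPs open. The 5 libraries at a marker sum of 1310 or more are the highest for the first 3 genes and among the lowest for *Hspa1l*.

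Around these 9 chaperones, 86 of 91 other chaperone genes in 6 lists were tested: J domain proteins, other Hsp70 partners, Hsp90 partners, the CCT chaperonin, mitochondrial chaperones, and other Hsp70, small heat shock proteins and heat shock factors. In pachytene spermatocytes 8 were called higher in polysomes and 0 lower, beside 6.15% and 0.177% of all genes. *St13*, a Hsp70 partner, had 122 ± 10.2 FPKM in polysomes and 37.0 ± 18.8 FPKM in RNPs (SD, n = 3 each), a log2 difference of 1.84 ± 0.41 (limma, adjusted p = 0.027). The others were the J domain genes *Dnajb6* and *Dnajc21*, the Hsp70 partners *Stub1* (a ubiquitin ligase), *Hspbp1* and *Sil1* (exchange factors), *Pih1d1* and *Hsf2bp*. In round spermatids 0 of 86 were called, beside 0.259% of all genes higher and 0.0749% lower. In elongating spermatids, where 1.38% of all genes were called higher and 0.211% lower, 4 were higher in polysomes and 0 lower, namely *Dnaja1*, *Dnajc8*, *Hspbp1* and the Hsp90 co-chaperone *Ptges3*. *Hspbp1* had 78.8 ± 15.6 FPKM in elongating polysomes and 12.4 ± 2.01 FPKM in elongating RNPs (SD, n = 3 each), a log2 difference of 2.57 ± 0.43 (limma, adjusted p = 0.0072). The median over the 86 genes was 1.15, 0.86 and 0.92 in pachytene, round and elongating cells, against 1.01, 0.64 and 0.71 over all genes, and none of the 12 fraction calls passed after median-ratio scaling. Between elongating and pachytene polysomes 1 of 86 was called higher and 1 lower, beside 3.15% and 2.86% of all genes. The exchange factor *Bag1* was higher, at 363 ± 126 FPKM in elongating and 70.0 ± 28.1 FPKM in pachytene polysomes (SD, n = 3 each; 2.39 ± 0.67, limma adjusted p = 0.047). *Hsf1*, the main heat shock factor, was called lower (limma, adjusted p = 0.027, and 0.063 after median-ratio scaling, where the call was lost), with all 3 elongating polysome libraries listed at 0 and 11.0 ± 2.34 FPKM in pachytene polysomes (SD, n = 3).

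The genes whose levels ran most like those of a member were found over the 18 libraries among 7086 genes, by Pearson's r of log2 scaled levels. For *Hspa1l* they were 4931407G18Rik (r = 0.995), 1700011F03Rik (0.992) and *Asb17* (0.991). For *Hspd1* they were *Serinc1* (0.976), *Mcm6* (0.951) and *Mcm5* (0.944), for *Hspa8* *Maged1* (0.932) and *Mfge8* (0.915), and for *Hsp90ab1* *Pdia4* (0.917). For *Hsp90aa1* they were *Dync1i2* (0.946) and *Psmd2* (0.941), and for *Hspa4l* 1700019B03Rik (0.949) and *Kifap3* (0.920). Spliced *Hspa2* (0.864), *Hspe1* (0.866) and *Hspa4* (0.851) had weaker best matches.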

How the data were processed

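The 18 deposited files are one Cufflinks assembly per library, which the authors made after trimming with the FASTX-Toolkit and alignment to mm9 with TopHat2 (versions not given in the sources used here). Per the file headers and attributes the value of a transcript is an FPKM, with no normalization between libraries and no count, so depth is unknown. Coverage per FPKM ran from 1.20 to 2.26. Spliced transcripts were matched to GENCODE vM1 genes, and FPKM summed. Genes that reached an FPKM of 1 in 3 or more libraries were compared with limma 3.58.1 (R 4.3.3, trend) on log2(FPKM + 1), which understates changes of low genes, in 1 model of 6 groups with 12 residual degrees of freedom, two-sided, with calls below 0.05 after Benjamini-Hochberg adjustment over all genes. The 9 members were all named. Of other chaperones, called genes could be named, and of genes alike in pattern the 3 closest (mean FPKM of at least 10). Members and lists were chosen with earlier results of these data known. The rule of calling was tested on simulated data. Same-numbered libraries deviated together, at every r above 0.1, only between the fractions of round spermatids (0.200 to 0.662) and between round and pachytene RNPs (0.110 to 0.598), where the block changed no call. Copies were sought with blastn 2.17.0, and sequences read with pysam 0.24.0. Alternatives were other filters, a pseudocount of 0.1, 3 scalings, other ways of summing, the replicate block and libraries left out. Marker lists of Leydig, peritubular, macrophage and red blood cells summed to 12.1 to 228, 9.11 to 92.6, 6.19 to 62.1 and 0.894 to 60.1 FPKM.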

Additional observations from a re-analysis of the deposited data

How the results depend on the processing

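Of 2601 values of single members under alternatives, 2560 kept their side of the threshold, 25 came to pass it, 7 no longer passed and 9 reversed. Of the 2560, 284 changed sign with no call either way. The 9 reversals were all *Hspa2*: with single-exon transcripts counted it gave -0.60 in round and -0.84 in elongating against pachytene polysomes and -0.89 in RNPs, with the same per covered base -0.61, -0.84 and -0.86, and with that and median-ratio scaling -0.35, -0.42 and -0.71. The number of members called was unchanged in 260 of 289 alternatives. For elongating against pachytene RNPs (1 member) it was 2 with median-ratio scaling and at a threshold of 0.1, 3 without the 4 libraries numbered 2, 0 with the compared libraries only and 0 under each way of counting single-exon transcripts, and 0 to 1 with a library left out, being 0 without elongating RNP library 1 or 3 or pachytene RNP library 2. For elongating against pachytene polysomes (1) it was 2 at a threshold of 0.1, 5 with the compared libraries only (*Hspa2*, *Hspa1l*, *Hspa4*, *Hspa4l* and, lower, *Hsp90ab1*), 2 without the 4 libraries numbered 2 and 1 to 2 with a library left out, being 2 without pachytene polysome library 1. With the compared libraries only, 2240 genes were called in that comparison, against 882 in the main fit, and the *Hspa4* and *Hsp90ab1* calls are on sums over pieces. For round against pachytene polysomes (1) it was 0 with the compared libraries only and 0 under each way of counting single-exon transcripts. For round against pachytene RNPs (0) it was 1 without both round libraries numbered 2 and 0 to 1 with a library left out, being 1 without pachytene RNP library 3 or round RNP library 2. For the fractions of pachytene spermatocytes (0) it was 1 per covered base, with or without single-exon transcripts, and 2 without the 4 libraries numbered 2. Counting per covered base and leaving out the 4 libraries numbered 2 were chosen after seeing the data.

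With the replicate number as a block over all 18 libraries, 1 member was called for elongating against round polysomes (*Hspa1l*, limma adjusted p = 0.043), 2 for elongating against pachytene polysomes and 3 for elongating against pachytene RNPs (*Hspa2*, *Hspa1l* and *Hspa4*). For elongating against round polysomes this block raised the genes called from 84 to 631. The share of all genes called with it in the other comparisons is not given here. With the block and only the libraries compared, 0 members were called for round against pachytene polysomes and 0 for elongating against pachytene RNPs. In these comparisons same-numbered libraries did not deviate together at every r above 0.1, and whether they share a purification is unknown. Between round and pachytene polysomes r was 0.476, 0.369 and -0.122 for numbers 1, 2 and 3. The block changed no other count of members.

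Over all genes the calls moved by more than 1.5 times in every comparison. Main and extreme counts were 929 (3 to 2352) for the fractions of pachytene, 49 (1 to 178) of round and 234 (0 to 2320) of elongating cells. In polysomes they were 27 (0 to 192) for round against pachytene, 84 (1 to 631) for elongating against round and 882 (5 to 2240) for elongating against pachytene. In RNPs they were 0 (0 to 13), 12 (0 to 124) and 101 (0 to 868), and for the changes of the fraction difference 1 (0 to 21), 1 (0 to 9) and 4 (2 to 38). No depth is known, so a 0 can be a transcript that was present and not assembled.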

Other observations

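Among other chaperones that were abundant in these cells, the CCT chaperonin subunits *Tcp1* and *Cct3* averaged 567 and 262 FPKM over the 18 libraries, and all 10 CCT genes had a positive polysome minus RNP difference in each of the 3 cell types, with medians of 1.36, 0.96 and 1.11 in pachytene, round and elongating cells, against 1.01, 0.64 and 0.71 over all genes, and 0 called. After median-ratio scaling 9, 6 and 7 of the 10 were positive, with medians of 0.20, 0.30 and 0.21, against 0.18, 0.066 and 0.020 over all genes. The germ cell small heat shock protein *Hspb9* averaged 224 FPKM, the Hsp90 partner *Fkbp4* 171 FPKM and the mitochondrial Hsp70 *Hspa9* 89.7 FPKM.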
